A study of Caenorhabditis elegans with 2 samples.

Results

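Of the 346 snoRNA genes on the nuclear chromosomes of Caenorhabditis elegans, 124 were overlapped by at least 1 bp by a region listed for NHR-76 in the pooled data of L1 larvae. These 124 genes, called members here, are 35.8% of the snoRNA genes (95% Wilson interval 31.0% to 41.0%, which covers counting error only). Each member was given the signal of its strongest overlapping pooled region, so the members were chosen by the pooled list and their pooled signals are a description. The members spanned signals of 7.79 to 75.1, with a median of 16.3, and 20 of them lay under a thresholded peak.

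NHR-76 is a nuclear hormone receptor, a DNA-binding transcription factor known in worms for its part in fat loss driven by serotonin, and its places on DNA were mapped by sequencing of chromatin-immunoprecipitated DNA (ChIP-seq). Both libraries came from whole L1 larvae of strain OP203, a pool of males and females of the genotype unc-119(ed3) III, with the integrated transgene wgIs203, which makes NHR-76 with GFP and FLAG at its C-terminal end. They form 1 group, biological replicates 1 and 2, and no strain without the transgene was analysed here. The labels name nhr-76 as the antibody target and give neither the promoter nor the copy number of the transgene, nor whether the larvae came from separate cultures, so differences between the libraries may be technical. Whole larvae mix all cell types, and a region in a few cells cannot be told apart from weak binding in many.

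The pooled list and each library's list held 30000 regions of 1 width per list, namely 324 bp for the pooled list, 344 bp for replicate 1 and 310 bp for replicate 2. The authors call these lists peaks and background. The thresholded peaks, 0.827% of the pooled list, were the strongest pooled regions, with signals of 30.8 or more against a median of 10.3 for all pooled regions. The read depth is unknown, and the signal is the peak caller's own value. Library signals are given below as multiples of the median listed region of the same library, which was 6.50 in replicate 1 and 6.07 in replicate 2.

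Small nucleolar RNAs (snoRNAs) guide chemical changes of ribosomal and spliceosomal RNA. Box C/D snoRNAs guide 2′-O-methylation with fibrillarin, and box H/ACA snoRNAs guide pseudouridylation with dyskerin. Many animal snoRNA genes lie in introns of protein-coding host genes and are cut out of the host's transcript, while others have a promoter of their own. RNA polymerase III genes such as those for tRNAs carry internal promoter elements, the A box and the B box, that the factor TFIIIC binds, and some small RNA genes carry such boxes in front of the mature RNA.

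The sequences before the snoRNA genes with the strongest regions fell into 3 kinds, shown here because the rest of the results is ordered by them. The first kind held an A box by its textbook consensus, followed after 25 to 75 bases by the B box core GTTCGANNC, with at most 2 mismatches over both boxes. The search covered 150 bp before the gene to 30 bp into it, on the gene's strand. The 6 examples are the 110 bases directly before the gene, 5′ to 3′ on the gene's strand, from the RefSeq genome of WBcel235, the assembly of ce11, with the A box and the B box core in capitals. They lie at chrV:12303598-12303707 (plus strand), chrIV:12086599-12086708 (plus), chrV:11782882-11782991 (plus), chrII:10840207-10840316 (plus), chrV:19643188-19643297 (minus) and chrIV:11474192-11474301 (minus). In each of them the boxes lie just before the annotated 5′ end of a snoRNA gene inside an intron.
C51F7.3: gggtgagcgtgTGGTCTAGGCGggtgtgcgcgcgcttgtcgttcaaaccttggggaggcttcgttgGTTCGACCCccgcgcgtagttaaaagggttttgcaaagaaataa
F11A10.9: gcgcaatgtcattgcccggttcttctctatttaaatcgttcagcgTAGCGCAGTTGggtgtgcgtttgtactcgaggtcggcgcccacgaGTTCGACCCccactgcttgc
F55A11.10: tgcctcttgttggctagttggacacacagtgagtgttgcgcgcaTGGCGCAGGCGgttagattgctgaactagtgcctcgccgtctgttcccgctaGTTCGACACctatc
M106.6: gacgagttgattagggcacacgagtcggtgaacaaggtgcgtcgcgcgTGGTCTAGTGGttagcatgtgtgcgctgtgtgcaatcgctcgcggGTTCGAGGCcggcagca
Y43F8C.22: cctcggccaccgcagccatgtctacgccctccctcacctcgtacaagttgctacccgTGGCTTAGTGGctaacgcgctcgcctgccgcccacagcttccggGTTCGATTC
C10C6.8: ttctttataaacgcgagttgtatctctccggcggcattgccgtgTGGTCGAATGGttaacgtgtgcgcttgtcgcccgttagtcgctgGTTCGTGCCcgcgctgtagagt

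The second kind held an element read off the sequences of the peak members themselves, GNAACNCG, then 6 bases, then GTCNGNC. Its count among those members is therefore a description and supports nothing. The 3 examples have both parts in capitals and lie at chrV:8500469-8500578 (plus strand), chrII:14018442-14018551 (minus) and chrV:8247962-8248071 (minus).
ZK994.7: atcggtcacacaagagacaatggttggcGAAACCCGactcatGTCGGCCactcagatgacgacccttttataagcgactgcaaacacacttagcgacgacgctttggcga
F01D5.12: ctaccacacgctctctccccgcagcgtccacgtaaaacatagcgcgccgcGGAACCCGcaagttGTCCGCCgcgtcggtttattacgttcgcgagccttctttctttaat
C16D9.10: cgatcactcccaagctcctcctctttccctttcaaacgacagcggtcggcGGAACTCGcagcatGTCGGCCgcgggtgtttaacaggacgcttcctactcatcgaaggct

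The third kind held neither. The 2 examples have no capitals and lie at chrV:12596978-12597087 (minus strand) and chrII:8075399-8075508 (plus strand). No match says only that no pair within 2 mismatches and no second element was found in the searched window. A single box can still be there, since C14C10.8 holds TGGCCGAGTGG, which matches the A box consensus. Genes said below to have neither kind of box, or no boxes, are those without a pair within this limit and without the element.
C14C10.8: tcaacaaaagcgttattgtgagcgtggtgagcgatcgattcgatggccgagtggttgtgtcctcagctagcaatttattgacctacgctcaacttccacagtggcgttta
K02C4.8: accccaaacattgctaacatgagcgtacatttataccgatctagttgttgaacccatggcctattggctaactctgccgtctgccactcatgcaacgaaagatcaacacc

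The genes themselves were checked against the short boxes of snoRNAs. A box C/D-like gene had TGATGA in its first 20 bases and CTGA in its last 20, and a box H/ACA-like gene had ACA in its last 10 bases without both of those. By this letter match 14 of the 346 genes were box C/D-like, 100 were box H/ACA-like and 232 were neither, so the annotated class of most genes was not checked by these letters. The ACA rule is loose, and its rate in other sequences was not counted. The region list covered 9 of the 14, 44 of the 100 and 71 of the 232, with 4, 8 and 8 peaks. C51F7.3, at chrV:12303708-12303783 on the plus strand, is an example of the first class and D1046.6, at chrIV:8927265-8927393 on the plus strand, of the second, each shown in full with those boxes in capitals.
C51F7.3 gene: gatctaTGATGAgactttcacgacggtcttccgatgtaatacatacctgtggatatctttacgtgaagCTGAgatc
D1046.6 gene: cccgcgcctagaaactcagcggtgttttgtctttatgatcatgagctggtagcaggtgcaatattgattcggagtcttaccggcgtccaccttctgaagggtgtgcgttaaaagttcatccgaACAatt

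Peaks were much more frequent among the members than among listed regions in general. The strongest region was a thresholded peak for 20 of the 124 members (16.1%), against 0.827% of all pooled listed regions and 1.72% of the listed genes of other classes. A q-value at or below 0.05 was found for 37 members (29.8%), against 2.32% of the pooled regions. Being listed at all was about as frequent as among the genes of other classes together. Of those 33.3% were listed, and most of the listed ones were much longer protein-coding genes. Of 7764 ncRNA genes, with a median length of 140 bp, 22.6% were listed, and 4.95% of the listed ones had a peak. A gene of 130 bp, the median length of a snoRNA gene, would touch a listed region at 13.3% of genome positions, against the 35.8% of snoRNA genes that did.

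Other small RNA genes give the scale of these shares. Of 612 tRNA genes 264 (43.1%) were listed and 23 had a peak, with a median strongest signal of 14.4. Of 129 snRNA genes 38 (29.5%) were listed and 9 had a peak, with a median of 17.5. Of 261 miRNA genes 45 (17.2%) were listed and 1 had a peak, with a median of 10.5, close to that of all regions. By share and signal the snoRNA genes thus lay with the tRNA and snRNA genes, and no test was made between the classes.

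The regions gathered just before the snoRNA genes. The middle of a listed region fell in the 50 bp bin from -100 to -50 bp before the 5′ end for 8.38 per 100 snoRNA genes, against a median of 2.02 per 100 in bins more than 300 bp away. The snRNA genes also had their fullest bin before the gene, from -50 to 0 bp, with 9.30 per 100 genes. Among tRNA genes, whose boxes lie inside the gene, the fullest bin was 0 to 50 bp after the 5′ end, with 10.1 per 100 genes. For the 20 members with a peak the middle lay before the gene in 16, inside it in 3 and past it in 1, with a median position of -42.5 bp and a range of -132 to 98 bp. For the 104 members without a peak it lay before the gene in 49, inside it in 31 and past it in 24, with a median of 13 bp.

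**Figure D1:**
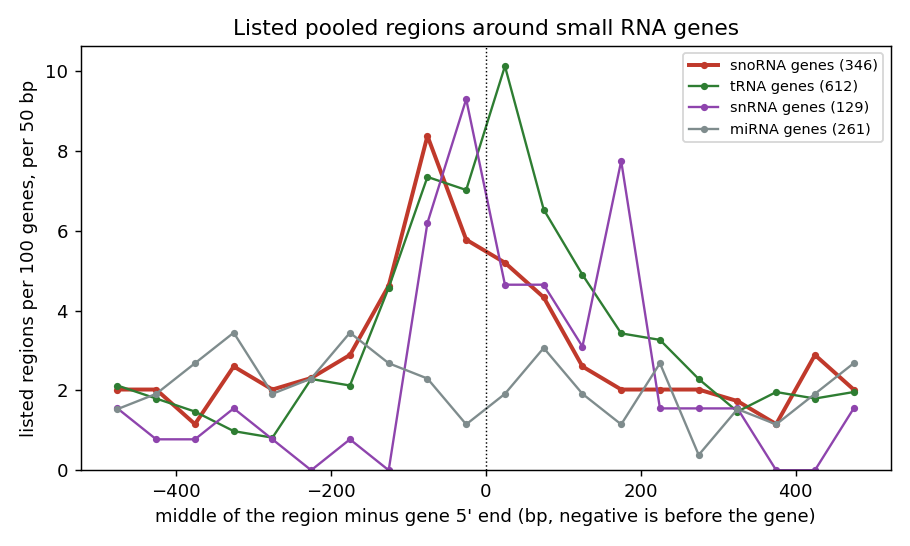
Number of pooled listed regions whose middle lies in each 50 bp bin, per 100 genes (vertical axis), against the distance in bp from the gene's 5′ end (horizontal axis, negative before the gene), for snoRNA, tRNA, snRNA and miRNA genes. The snoRNA line is highest at 8.38 before the gene, the snRNA line at 9.30 just before the gene and the tRNA line at 10.1 just inside the gene. The miRNA line has its fullest bins, at 3.45, away from the 5′ end.

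Of the 20 members with a peak, 12 lay in an intron of a protein-coding gene on the same strand, 6 lay outside genes and 2 overlapped an exon or the edge of a protein-coding gene. They shared 19 peaks, since C51F7.3 and C51F7.4 lie under the same one. Each of the 20 was listed in both libraries, with a median of 3.41 times the median region in replicate 1 and 3.39 times in replicate 2. The peaks had been thresholded by the irreproducible discovery rate, a measure of reproducibility, so their selection favoured listing in both.

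Among the intron members with a box pair, C51F7.3 in frm-7 had the strongest peak, with a pooled signal of 54.6 and 4.58 and 4.66 times the median region in replicates 1 and 2. D1046.6 followed in cfim-2, which encodes a subunit of the cleavage factor that acts at mRNA 3′ ends, with a signal of 53.7 and 4.19 and 4.45 times the median region. C10C6.8 in the cation ATPase gene catp-8 had a signal of 37.9, with 2.37 times the median region in replicate 1 and 3.45 times in replicate 2. The first pair of genes was about equal in both libraries, and C10C6.8 was higher in replicate 2. C05D2.15 in madf-11 had a signal of 37.4 (2.58 and 3.15 times in replicates 1 and 2). F11A10.9 in rbm-34, which encodes a predicted RNA-binding protein, had a signal of 36.5 (3.30 and 2.32 times). F55A11.10 in F55A11.6 had a signal of 33.9 (2.03 and 3.26 times). These 3 differed in which library was higher. M106.6, in the condensin subunit gene mix-1 at 16071 bp from the host's 5′ end, had a signal of 33.0 (3.19 and 1.97 times). Y43F8C.22 in Y43F8C.7 had a signal of 32.4 (2.21 and 3.33 times). Every one of these 8 genes was followed by a run of TTTT within 20 bp after its end, the letters at which RNA polymerase III is known to stop.

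C51F7.4 and C51F7.3 form an unusual pair. C51F7.4 is annotated as a snoRNA gene of 95 bp that ends 14 bp before C51F7.3, and the A and B boxes found before C51F7.3 lie inside it. The middle of their common peak lies 53 bp into C51F7.4 and 56 bp before C51F7.3. C51F7.4 touches an exon or the edge of frm-7 and has neither kind of box before its own 5′ end, and it is counted here as a gene without boxes.

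The strongest member of all, ZK994.7, carried the second element. It lies in an intron of pxn-1, a peroxidasin gene of the extracellular matrix, and had a pooled signal of 75.1 (rank 14 of the 30000 regions), with 5.33 times the median region in replicate 1 and 5.99 times in replicate 2. Y37E3.20 in pcyt-2.1, which encodes an enzyme of phosphatidylethanolamine synthesis, had a signal of 60.7 (3.53 and 4.93 times). Both were higher in replicate 2. F01D5.12 in F01D5.10 had a signal of 39.2 (3.28 and 2.92 times). The other 3 peak members with this element lay outside genes. F59C6.15 had a signal of 54.8 (3.99 and 3.93 times) and has 2 further near-identical matches in the genome, so reads of its body may be shared. Y74C9A.6 had a signal of 49.0 (4.05 and 3.25 times). C16D9.10, the weakest peak member, had a signal of 31.2 (1.65 and 2.37 times).

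Among the peak members with neither kind of box, C14C10.8 in ril-2 was the only one inside an intron, with a pooled signal of 45.1 and 3.87 and 3.31 times the median region in replicates 1 and 2. Y53F4B.48, outside genes, had a signal of 50.7, with 2.39 times in replicate 1 and 6.19 times in replicate 2. K02C4.8, outside genes, had a signal of 50.1 (3.86 and 4.16 times). The libraries were close for K02C4.8 and C14C10.8 and far apart for Y53F4B.48. ZK265.10, outside genes, had a signal of 39.7, with 1.33 times in replicate 1 and 4.58 times in replicate 2, the largest ratio between the libraries among the 20. T02E1.9, at an exon or the edge of the sperm gene spe-12, is the remaining peak member and carried a box pair. It had a signal of 34.3 (3.62 and 2.698 times).

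Just outside the peak threshold stood ZK20.9, at a signal of 29.8 against the 31.2 of C16D9.10 just inside. ZK20.9 had 2.72 times the median region in replicate 1 and was not listed in replicate 2. The 10 strongest members without a peak had signals of 25.4 to 29.8, all with q at or below 0.05, and 5 of them were listed in both libraries. Those 5 were C26C6.13 (signal 29.7), F12F6.11 (28.0), C36E8.11 (27.5), T04A8.17 in an opposite-strand intron of ppat-1 (27.4) and T06D8.11 in plpr-1 (26.1). M7.15 (signal 28.46), T27A3.9 at T27A3.8 (28.2) and smy-2 in C33A12.3 (26.5) were listed in replicate 2 alone. Y71F9AM.7 in the Golgi tethering gene cogc-3 (25.4) was listed, like ZK20.9, in replicate 1 alone. All 20 peak members were listed in both, which the thresholding of the peaks on reproducibility favours.

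The weakest members had signals near the lowest of the list, 7.73. D2096.14 in the histone chaperone gene nap-1 and F59A2.7 in the golgin gene golg-4 had 7.79 each. B0412.6 in the ribosomal protein gene rps-29 had 7.82 and Y38E10A.32 outside genes had 8.06. C07A9.14, in an opposite-strand intron of ncx-7, had 8.12. C07A9.14 was in neither library's list and the other 4 were in the list of 1 library. Just outside the rule, the unlisted snoRNA genes nearest to a listed region were W10C8.17 in the TCF gene pop-1 at 4 bp, F09G2.14 at 5 bp, Y44A6C.3 at 11 bp, R151.12 in rpl-6 at 16 bp, and T10B9.11 and F17C11.15 (in eef-1G) at 17 bp. Of the 222 unlisted genes 51 were under a region of at least 1 library's own list and 171 were in none of the 3 lists.

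Host introns and places outside genes were listed at about the same rate. Of 150 snoRNA genes in a same-strand intron 55 were listed (36.7%, 29.4% to 44.6%), and of 119 outside genes 45 were listed (37.8%, 29.6% to 46.8%). The difference of -1.15 percentage points had an interval of -12.7 to 10.3 points, and a difference inside that interval was not detectable with this many genes. The median signal of the members was 17.5 in introns and 16.4 outside genes, a difference of 0.09 on the log2 scale. That difference was 0.35 in replicate 1 alone and 0.22 in replicate 2 alone. It was -0.00443 when introns of either strand and genes at an exon or edge were counted together. Peaks were found at 12 of the 150 intron genes (8%, 4.64% to 13.5%) and at 6 of the 119 outside genes (5.04%, 2.33% to 10.6%). The intervals overlap widely. Of 28 genes in an opposite-strand intron 9 were listed and 0 had a peak, and of 44 at an exon or edge 14 were listed and 2 had a peak.

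**Figure D2:**
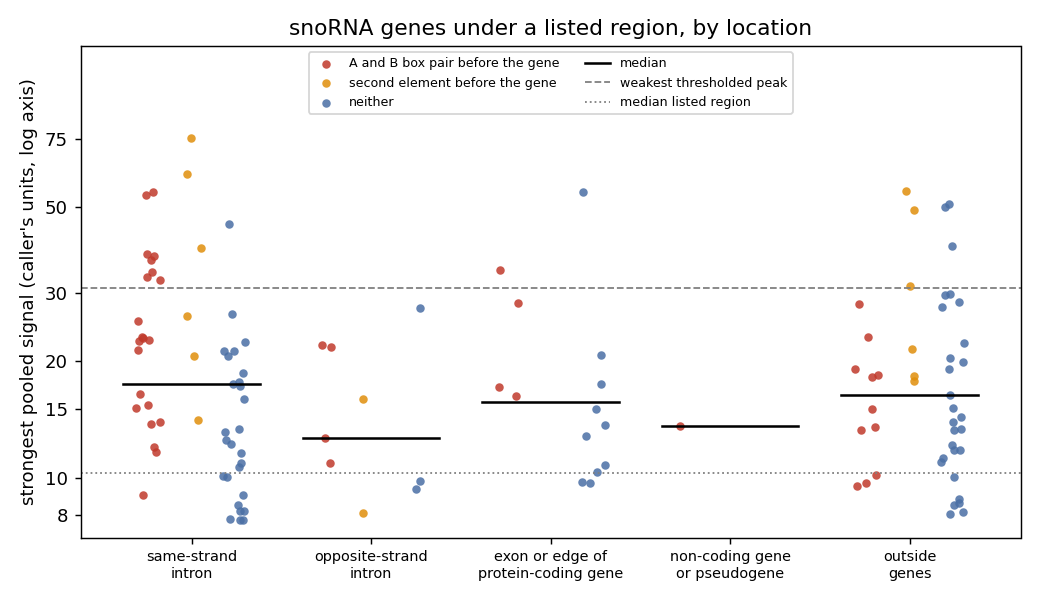
Strongest pooled signal of each of the 124 members (vertical axis, the caller's units, log scale) by location of the gene (horizontal axis), coloured by the kind of sequence before it; black bars are medians, the dashed line is the weakest thresholded peak at 30.8 and the dotted line the median region at 10.3. Among intron members 8 of the 12 points above the dashed line have a box pair and 3 have the second element, which was read off the peak members.

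Listed shares and peaks differed with the sequence before the gene, most in same-strand introns. In same-strand introns, 28 of 41 genes with a box pair or the second element were listed (68.3%, 53.0% to 80.4%), against 27 of 109 with neither (24.8%, 17.6% to 33.6%). Peaks lay at 11 of the 41 (26.8%) and at 1 of the 109 (0.917%). Outside genes, 17 of 30 genes with either kind were listed (56.7%) with 3 peaks, all at the second element, against 28 of 89 with neither (31.5%) with 3 peaks. In opposite-strand introns 6 of 13 with either kind were listed, against 3 of 15 with neither, with 0 peaks in both. Over all snoRNA genes the listed share was 62.2% (56 of 90) with either kind and 26.6% (68 of 256) with neither, a difference of 35.7 points (23.9 to 46.3). The search for these boxes was chosen after the strongest members had been seen, and the second element was read off the peak members. These shares describe the genes without a test.

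**Figure D3:**
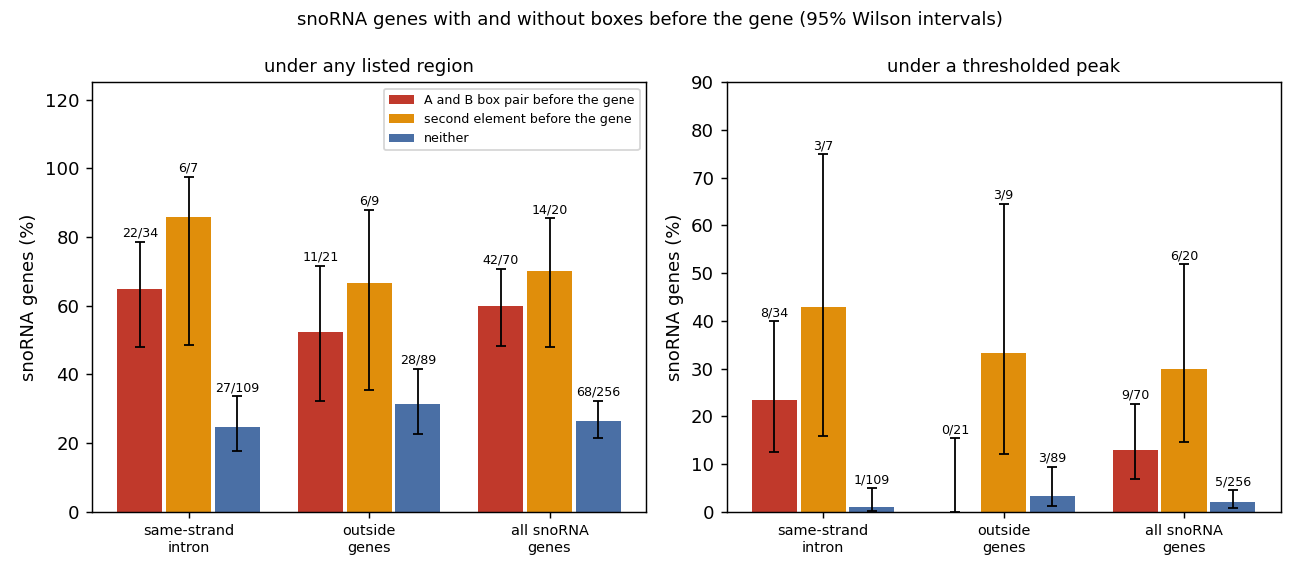
Share of snoRNA genes under any listed region (left panel) and under a thresholded peak (right panel), in percent, with 95% Wilson intervals; red bars are genes with a box pair, orange bars genes with the second element, which was read off the peak members, and blue bars genes with neither, with genes counted over genes present above each. The box pair has peaks at 8 of 34 against 1 of 109 genes in same-strand introns, and at 0 of 21 against 3 of 89 outside genes.

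The letters of the A and B boxes were taken from the textbook and not from these genes. The search for them and its limits were still chosen after the strongest members had been seen. The box pair alone gave the same order for the listed share and, over all places together, for peaks. Of 70 genes with a pair 42 were listed (60%, 48.3% to 70.7%) and 9 had a peak (12.9%), with a median member signal of 18.7. The median was 13.3 for the 68 members with neither. In same-strand introns 22 of 34 genes with a pair were listed (64.7%) and 8 had a peak (23.5%). Outside genes 11 of 21 with a pair were listed (52.4%), but 0 of the 21 had a peak (Wilson interval up to 15.5%). Of the 89 with neither, 3 had a peak (3.37%), so the order of the peaks did not hold there at this limit. Y53F4B.48 and K02C4.8, among those 3, hold a pair with 3 mismatches. At that limit 177 snoRNA genes have a pair or the element, and peaks by place were not recounted. A q-value at or below 0.05 was reached outside genes by 2 of the 11 members with a pair and by 8 of the 28 with neither. Of 20 genes with the second element 14 were listed and 6 had a peak, with a median of 23.8. The share with a pair or the element was 15 of 20 peak members (75%), 9 of 17 other members with q at or below 0.05 (52.9%), 32 of the remaining 87 members (36.8%) and 34 of the 222 unlisted genes (15.3%). For the box pair alone the shares were 9 of 20 (45%), 8 of 17 (47.1%), 25 of 87 (28.7%) and 28 of 222 (12.6%), about the same in the first 2 tiers. The pooled regions with boxes were also richer in G and C, with a median of 44.3% for the box pair, 44.0% for the element and 41.2% for neither. The part of base composition in the listed share was not tested.

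Background searches give the rate of such matches elsewhere. The box pair was found in 3.14% of the same windows before protein-coding genes, 6.90% of those before miRNA genes and 0.775% of those before snRNA genes, against 20.2% of those before snoRNA genes. In the bodies of tRNA genes, where both boxes are known to lie, it was found in 610 of 612 (99.7%). On the opposite strand of the same snoRNA windows it was found in 5.20%. The second element was found before 5.78% of snoRNA genes and before 1 of 19973 protein-coding genes, 2 of 129 snRNA genes (1.55%) and 2 of 261 miRNA genes (0.766%), and in 0 of the snoRNA windows on the opposite strand. Over both strands of the pooled regions the pair was found in 10.3% and in 16.9% of the thresholded peaks, so the pair by itself does not mark a peak.

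A run of TTTT within 20 bp after the gene was found at 16 of the 20 peak members (80%, 58.4% to 91.9%) and at 80 of the 222 unlisted snoRNA genes (36.04%, 30.01% to 42.5%). The same run followed 98.4% of tRNA genes and 40.3% of protein-coding genes, so the run is common elsewhere too. Among genes with a box pair, 33 of 50 with the run were listed and 9 had a peak, against 9 of 20 listed and 0 peaks without the run. AGGTCA, the half-site that many nuclear receptors bind, was found on either strand before 3 of the 20 peak members and before 10 of the 222 unlisted genes (4.50%). The interval for the 3 of 20, 5.24% to 36.04%, overlaps that for the unlisted genes, 2.46% to 8.09%. The TATA box letters TATAAA were found before 5 of the 20 peak members and 26 of the 222 unlisted genes. For GAGAGA the counts were 5 of the 20 and 34 of the 222. The G- and C-rich GGGCGG was found before 5 of the 20 (25%, 11.2% to 46.9%) and 13 of the 222 (5.86%, 3.45% to 9.76%), the only one of these 4 words whose intervals did not overlap, beside the higher G and C content of the peak regions (median 46.3%, against 41.5% for members without a peak).

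Where the boxes lay relative to the region was read for the 42 members with a pair. The A box began at a median of -60 bp and the B box core at -16 bp from the 5′ end. The middle of the region fell between the ends of the pair in 11 of the 42 and before the gene in 30. With regions of 324 bp the position of the middle is coarse on this scale. For the 14 members with the second element the element began between -82 and -56 bp.

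Host gene type divided the intron members further. Cytosolic ribosomal protein genes, well known as snoRNA hosts in animals, held 21 snoRNA genes, of which 10 were listed (47.6%), 0 had a peak and 0 had q at or below 0.05. Their signals ran from 7.82 to 17.7 with a median of 11.8. Of the 129 intron genes in other hosts 45 were listed (34.9%), with 12 peaks, signals of 7.79 to 75.1 and a median of 21.2. The 0 of 21 allows a peak share of up to 15.5% by the Wilson interval, which contains the share in other hosts. A box pair was found before 3 of the 21 snoRNA genes in ribosomal hosts and the second element before 0.

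The ribosomal hosts included rpl-6, with R151.13 at a signal of 17.7 and R151.11 at 13.3, rpl-15 with K11H12.13 at 13.1, rpl-4 with B0041.9 at 12.2 and rps-23 with F28D1.13 at 12.0, the last being the 1 of these 10 members with a box pair. All 10 lay 99 to 953 bp from the host's 5′ end, and the part of the host's promoter in these signals was not tested. In the larger groups, hosts with another gene name held 91 snoRNA genes, 30 listed and 9 with a peak, at a median of 20.6. Hosts known by a sequence name alone held 17, with 8 listed, 3 with a peak and a median of 24.5. Hosts for splicing and RNA-binding proteins held 5 with 3 listed, cytoskeleton and muscle hosts 4 with 2 listed, translation hosts 4 with 1 listed and snoRNP or ribosome assembly hosts 4 with 1 listed, all without a peak. Host types were assigned by gene symbol alone and can miss genes of a type. The predicted RNA-binding protein gene rbm-34, with a peak at F11A10.9, was counted among hosts with another gene name. The 2 snoRNA genes in chaperone hosts, the 1 in a mitochondrial host and the 1 in a proteasome host were not listed.

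Distance from the host's 5′ end went the same way. Of 97 intron snoRNA genes more than 1 kb from it 38 were listed with 10 peaks and a median signal of 20.9, and of 53 nearer ones 17 were listed with 2 peaks and a median of 12.5. Outside genes the order was the other way, with 22 of 72 genes more than 1 kb from the start of any protein-coding gene listed with 2 peaks and 23 of 47 nearer ones with 4 peaks. Intron members with either kind of box lay at a median of 2947 bp from the host's 5′ end, those with neither at 1116 bp, so box state and distance move together here. The 10 members in ribosomal protein hosts, all 99 to 953 bp from the host's 5′ end, are among the 17 nearer intron members. Host type thus moves with distance too. The separate parts of host type, box state and distance were not tested.

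Within a host the region at the snoRNA gene was often the strongest one. The 55 intron members lay in 52 hosts, and 47 of the members had another listed region in their host. In 28 of these 47 the region at the snoRNA gene was the stronger, with a median of 16.0 at the snoRNA gene and 13.6 for the strongest other region. For all 12 intron members with a peak it was the strongest in the host. This largely follows from the choice of peaks as the strongest pooled regions, since only another peak in the host could have been stronger. In 11 of those 12 hosts the strongest other region had a signal of 9.31 to 19.8, below the peak threshold, and the host of C14C10.8, ril-2, had no other. Only 2 of the 55 regions covered the host's own 5′ end. Regions were also sorted by where their own middle lies, which moves some regions of intron members to the exon class. By that count 10 of the 54 intron regions at a snoRNA gene were peaks (18.5%), against 9 of 120 at other small RNA genes (7.50%) and 37 of 8596 at none (0.430%). Outside genes the figures were 7 of 51 (13.7%) at a snoRNA gene, 22 of 185 (11.9%) at other small RNA genes and 142 of 10322 (1.38%) at none, and in exons 2 of 23 (8.70%), 1 of 45 (2.22%) and 18 of 10604 (0.170%).

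**Figure D4:**
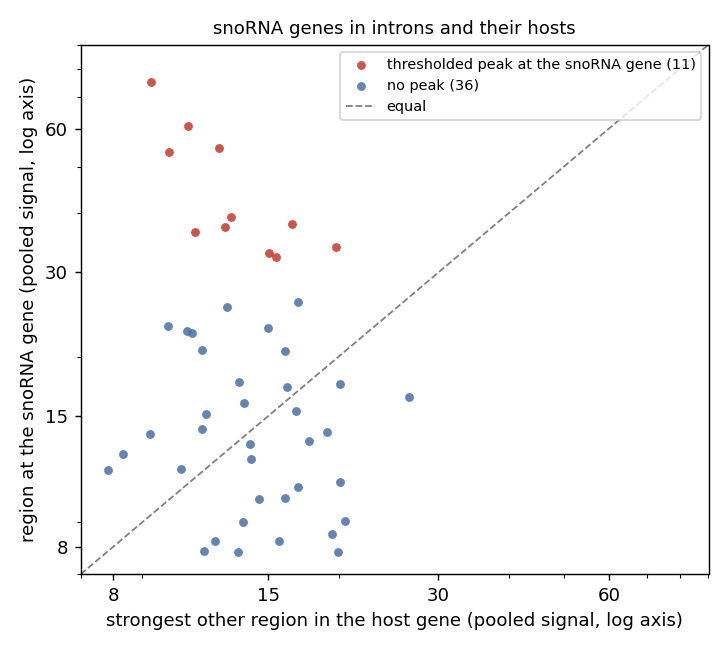
Pooled signal of the region at the snoRNA gene (vertical axis, log scale) against that of the strongest other listed region in the same host gene (horizontal axis, log scale), for the 47 intron members whose host has another; the dashed line marks equal signals. The 11 members with a peak lie above the line, which their choice by pooled signal favours, and the 36 without one lie on both sides of it.

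Both library lists held the strong members, while many weak ones were in a single list. Of the 124 members 62 were listed in both libraries, 27 in replicate 1 alone, 27 in replicate 2 alone and 8 in neither. The median pooled signal was 42.4 for the 20 peak members, 18.7 for the 42 others in both libraries, 11.7 and 13.3 for those in replicate 1 alone and replicate 2 alone, and 8.77 for those in neither. Replicate 2 was the higher one in 32 of the 62, and 36 of the 62 differed by less than 1.5-fold. The pooled list was made from the reads of both libraries, so agreement with it is not independent.

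By q-value the libraries differed in their background. Members with q at or below 0.05 numbered 29 in replicate 1, where 2.65% of all regions passed, and 45 in replicate 2, where 6.68% passed, with 20 in both. Of the 20 peak members 17 passed in both, and 9 ranked in each library's own list within the number of the peaks, while 1 did so in neither. The unlisted snoRNA genes were not empty in the single libraries, since 23 were listed in replicate 1, 33 in replicate 2 and 5 in both. Of these, 3 passed the q-value in replicate 2, namely T19B4.8, K10D3.10 and C04G6.12 at 2.65, 2.56 and 2.61 times its median region, and 0 passed in replicate 1. They were picked out after their values were seen.

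The largest library differences were in both directions. Replicate 2 was 3.83 times replicate 1 at C36E8.11, 3.63 times at C06A1.9 in the AAA ATPase gene cdc-48.1, 3.44 times at ZK265.10, 3.39 times at T26A8.6 and 2.66 times at R166.10. At the other end the ratio was 0.258 at C08D8.3 in C08D8.1 and 0.405 at C09H10.19, which overlaps an exon or the edge of nbs-1. It was 0.411 at T03F7.8, in an opposite-strand intron of the cuticlin-like gene cutl-18. The ratio was 0.423 at R151.13 in rpl-6 and 0.524 at K11H12.13 in rpl-15. All of these but ZK265.10 were without a peak. The peak members ranged from 0.617 at M106.6 to 3.44 at ZK265.10, and 15 of the 20 differed by less than 1.5-fold.

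**Figure D5:**
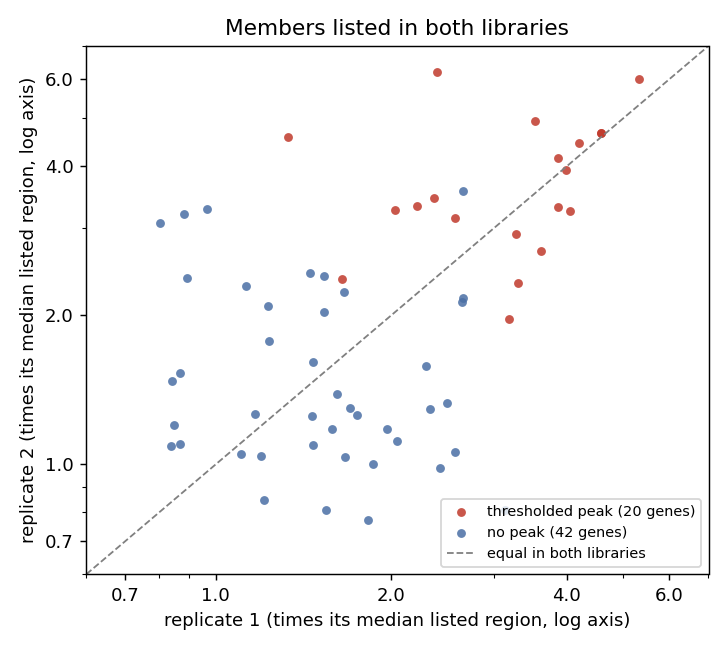
Signal in replicate 2 (vertical axis) against replicate 1 (horizontal axis), each in multiples of the median listed region of that library on log axes, for the 62 members listed in both libraries; the dashed line marks equal multiples. The 20 peak members reach 5.33 in replicate 1 and 6.19 in replicate 2, and ZK265.10 is the peak member farthest above the line at 1.33 and 4.58.

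The box-bearing intron members were also the stronger ones within each library. The 22 with either kind of box that were listed in replicate 1 had a median of 2.54 times the median region, against 1.51 times for the 18 with neither. In replicate 2 the medians were 2.31 times for 22 with either kind and 1.11 times for 17 with neither. A q-value at or below 0.05 was reached in replicate 1 by 15 of the 28 with either kind and by 2 of the 27 with neither, and in replicate 2 by 18 of the 28 and 3 of the 27. Both libraries thus gave the same order, for a grouping that includes the element read off the peak members.

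The listed share was lower on X than on the autosomes. On X 4 of 33 snoRNA genes were listed (12.1%, 4.82% to 27.3%) and 0 had a peak, while on the autosomes 120 of 313 were listed (38.3%, 33.1% to 43.8%). Genes of other classes ran the other way, with 41.9% of 5989 listed on X and 31.99% of 40555 on the autosomes. The tRNA and snRNA genes together were listed at 120 of 279 on X (43.0%) and 182 of 462 on the autosomes (39.4%). No test was made of this difference. Boxes of either kind were found before 3 of the 33 genes on X (9.09%) and before 87 of the 313 on the autosomes (27.8%), and 2 of the 4 listed X genes had one. Chromosome V held 7 of the 20 peak members among 55 snoRNA genes (12.7%, 6.30% to 24.02%). Among these 7, C51F7.3 and C51F7.4 lie under the same peak. Chromosomes I, II, III and IV had peak members at 5 of 74, 4 of 71, 1 of 54 and 3 of 59 snoRNA genes. Of the members 8 have another match in the genome of at least 95% identity over at least 50 bases, 1 of them with a peak, and reads from such copies may have been shared or lost.

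The proteins that work with snoRNAs were looked up for comparison, taking the strongest region over the gene or within 1 kb of its 5′ end. All 9 core and assembly genes were listed, 0 had a peak and 2 had q at or below 0.05. By the same lookup 70.3% of protein-coding genes were listed, 1.45% had a peak and 3.67% had q at or below 0.05, with a median signal of 11.7 against 16.8 for the 9. The 2 genes were dkc-1, which encodes the pseudouridine synthase dyskerin (signal 24.3), and the assembly ATPase gene ruvb-2 (22.1). The methyltransferase gene fib-1 (fibrillarin) had 20.6, the box C/D core genes nol-56, nol-58 and snu-13 had 20.9, 16.8 and 13.9, the H/ACA core genes garr-1 and Y48A6B.3 had 13.2 and 12.6, and ruvb-1 had 9.24. Of the 20 rRNA genes annotated on the nuclear chromosomes 0 were under a listed region (Wilson interval up to 16.1%). How reads from repeated sequences were handled is unknown, so this count does not show absence of signal.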

How the data were processed

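The authors deposited lists of regions for each library, for the pooled libraries and after thresholding by the irreproducible discovery rate. Per the deposited library listings, alignments of a library and a control gave its list, and both libraries together gave the pooled list. The aligner, region caller, thresholds and read depth are not given in the sources used here. The deposited signal is the caller's value, with no stated scaling to depth, and the deposited −log10 of the q-value was used at 0.05.

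Genes came from Ensembl release 115 on WBcel235, the assembly of ce11. A snoRNA gene was a member when a pooled region overlapped it by at least 1 bp, and library signals were divided by the median region of the list. Named genes are every peak member, the 10 strongest others, the 5 highest and 5 lowest library ratios, the 5 weakest members and the 5 nearest unlisted genes, with 1 tie added. The other members named in ribosomal protein hosts and the 3 unlisted genes with a low q-value in replicate 2 were chosen after their values were seen. Members, lists and searches were chosen with earlier results of these data known. With 1 group no test over samples was possible, and shares carry 95% Wilson intervals. Further matches were found with BLAST 2.17.0, tables made with Python 3.11.15, pandas 2.3.3, numpy 2.4.6 and scipy 1.17.1, and figures with matplotlib 3.10.9. The overlap search was checked on simulated data. Alternatives were stricter overlap, q-values, single libraries, other box rules and leaving out genes with further matches. The ce10 lists were used only to count counterparts of peaks.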

Additional observations from a re-analysis of the deposited data

How the results depend on the processing

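No paired analysis was possible because the libraries form 1 group. The count of 124 listed snoRNA genes was 37 at q at or below 0.05 and 112 to 122 in single libraries. The 20 genes with a peak were 11 with the stronger 50% of the peaks, 37 at q at or below 0.05, and 16 to 21 when the same number of strongest regions was taken from each library's own list. The listed share of intron genes minus that of genes outside genes turned positive, to 0.241 points, when at least 50% of the gene had to be covered, and was -0.947 to 0.706 in single libraries, where replicate 2 alone gave the positive value. The log2 difference of their median signals was -0.00443 with introns of either strand and genes at an exon or edge counted as inside. It was 0.22 without genes that have further matches, and 0.22 to 0.35 in single libraries. The cause was not tested. The 62 members in both libraries were 40 with 50% of the gene covered and 20 at q at or below 0.05. The difference between genes with and without boxes was 21.5 points with 3 mismatches allowed and 26.8 to 28.9 in single libraries; these box settings were chosen after seeing the data. In all, 24 recomputed values stayed near the reported ones, 9 moved and 3 turned sign. With read depth unknown, an unlisted gene may hold signal too weak to be listed.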
